A study of Mus musculus with 4 samples.

Results

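The genes of the endogenous opioid system were followed across the dorsal striatum of Foxp2hum/hum and wild-type mice. The 7 members were the 3 peptide precursor genes Pdyn, Penk and Pnoc and the 4 receptor genes Oprm1, Oprk1, Oprd1 and Oprl1, found by symbol among the 25259 genes of the deposited table. All 7 passed the filter used for testing, a mean of at least 10 normalised reads over all libraries. RNA was sequenced from laser-captured dorsomedial striatum (DMS) and dorsolateral striatum (DLS) of C57BL/6 mice aged 8 weeks. The 46 libraries comprised 12 from Foxp2hum/hum DMS, 11 from wild-type DMS, 12 from Foxp2hum/hum DLS and 11 from wild-type DLS. Foxp2hum/hum animals carry on both chromosomes a Foxp2 allele altered to encode the human amino-acid changes, and wild-type animals carry the mouse allele.

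Opioid peptides are cut from large precursors that are stored in vesicles and released from neurons, and they act on receptors coupled to inhibitory G proteins. Pdyn encodes the precursor of the dynorphins, which prefer the kappa receptor (Oprk1), and in striatum it is made by projection neurons of the direct pathway. Penk encodes the precursor of the enkephalins, which prefer the delta (Oprd1) and mu (Oprm1) receptors, and in striatum it marks projection neurons of the indirect pathway. Pnoc encodes the precursor of nociceptin, the ligand of the related receptor Oprl1. The mu receptor is known for its concentration in the striosome compartment, and the delta receptor for its presence on projection neurons and cholinergic interneurons.

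The precursor genes differ in how many opioid peptides they encode, which is shown here because it sets the peptides apart by sequence. In the mm9 annotation, the coding sequence of Penk held 7 in-frame copies of the opioid core, codons for tyrosine, glycine, glycine and phenylalanine in a row, and that of Pdyn held 3. The search took every synonymous codon and read the coding strand only. In the sequences printed here, 5′ to 3′ on the coding strand, capitals mark the 12 bases of the core. Of the 22737 genes with a coding sequence in the annotation, 0.321% held this core in frame. In Penk, the codon after the core was atg, for methionine, in 6 copies and ctg, for leucine, in 1 copy, as in these examples.
Penk copy 3, chr4:4061361-4061399, minus strand: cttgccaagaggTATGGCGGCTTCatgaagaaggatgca
Penk copy 6, chr4:4061076-4061114, minus strand: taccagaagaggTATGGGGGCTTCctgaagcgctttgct
Penk copy 7, chr4:4060986-4061021, minus strand: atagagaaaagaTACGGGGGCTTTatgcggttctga

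In Pdyn the codon after the core encoded leucine in all 3 copies, so every copy begins with the leucine form of enkephalin. In the copy shown, the core follows a pair of codons for basic amino acids, aagcgc, the kind of site at which precursor proteases cut.
Pdyn copy 3, chr2:129513797-129513835, minus strand: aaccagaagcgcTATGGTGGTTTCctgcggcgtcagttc

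Pnoc held no copy of the opioid core and 1 in-frame copy of the nociceptin core, in which the first codon encodes phenylalanine in place of tyrosine. That core was present in frame in 0.471% of the coding sequences.
Pnoc, chr14:66023703-66023741, minus strand: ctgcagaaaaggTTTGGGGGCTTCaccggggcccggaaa

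Library totals, summed over all genes of the deposited table, ran from 16.8 to 41 M reads. A read that falls in overlapping genes may count more than once in such a total. Values are the authors' normalised read counts, scaled to the depth of each library. The labels tie no library to an animal, so p-values measure the spread between libraries, and the 2 regions may share animals. The regional labels matched known gradients: Crym, high in medial striatum, had 2487 to 4135 normalised reads in the DMS libraries and 151 to 515 in the DLS libraries. Foxp2 itself averaged 1332 ± 193 and 1337 ± 263 normalised reads in DMS of Foxp2hum/hum and wild-type mice (SD, n = 12 and 11), and since the allele alters the protein, this level does not check the genotype labels. Choroid plexus and ependyma markers, from tissue that lines the ventricle beside DMS, were higher in DMS: 3 of 4 tested choroid plexus genes and 4 of 4 ependyma genes passed in each genotype. Shared projection neuron markers were lower in DMS, where 6 of 9 passed in each genotype. In bulk tissue, fewer cells of a type and less RNA per cell cannot be told apart.

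Per kilobase of merged exons, Penk was the most abundant member in every group, Pdyn came next, the receptors followed and Pnoc was lowest. Penk averaged 15718 ± 1693 normalised reads per exon kb in Foxp2hum/hum DMS and 15741 ± 1108 in wild-type DMS (SD, n = 12 and 11). Pdyn averaged 770 ± 94.2 and 776 ± 108 there, and 254 ± 34.4 in Foxp2hum/hum DLS and 314 ± 57.1 in wild-type DLS. On this exon scale the ranges of Penk, Pdyn and the next gene in the order did not overlap in any group. Per kilobase of gene span, introns included, Pdyn overlapped Oprl1 in Foxp2hum/hum DLS (lowest Pdyn 43.5, highest Oprl1 45.2).

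Among the receptors the order by mean level per exon kb differed between regions. In both DMS groups it was Oprl1, Oprk1, Oprm1 and Oprd1, from 61.7 for Oprl1 to 33.6 for Oprd1 in Foxp2hum/hum DMS and from 59.1 to 42.7 in wild-type DMS. In both DLS groups it was Oprd1, Oprl1, Oprm1 and Oprk1, from 61.7 for Oprd1 to 27.8 for Oprk1 in Foxp2hum/hum DLS and from 78.8 to 27.3 in wild-type DLS. Neighbours in this order overlapped in every group, so their order was not separated beyond the spread between libraries. Pnoc averaged 4.82 to 9.65 normalised reads per exon kb and overlapped the lowest receptor in wild-type DMS and in Foxp2hum/hum DLS. Per kilobase of gene span, which counts introns, the order was Oprl1, Oprk1, Oprd1 and Oprm1 in all 4 groups. The change of order between regions thus held on the exon scale only. On the span scale some neighbours did not overlap, such as Oprl1 and Oprk1 in Foxp2hum/hum DMS and both DLS groups. Others did, among them Oprl1 and Oprk1 in wild-type DMS. The values behave as if whole spans were counted (below), which leaves the right length for this scale unsettled. The Oprm1 value may also hold reads of Ipcef1 (below).

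**Figure D1:**
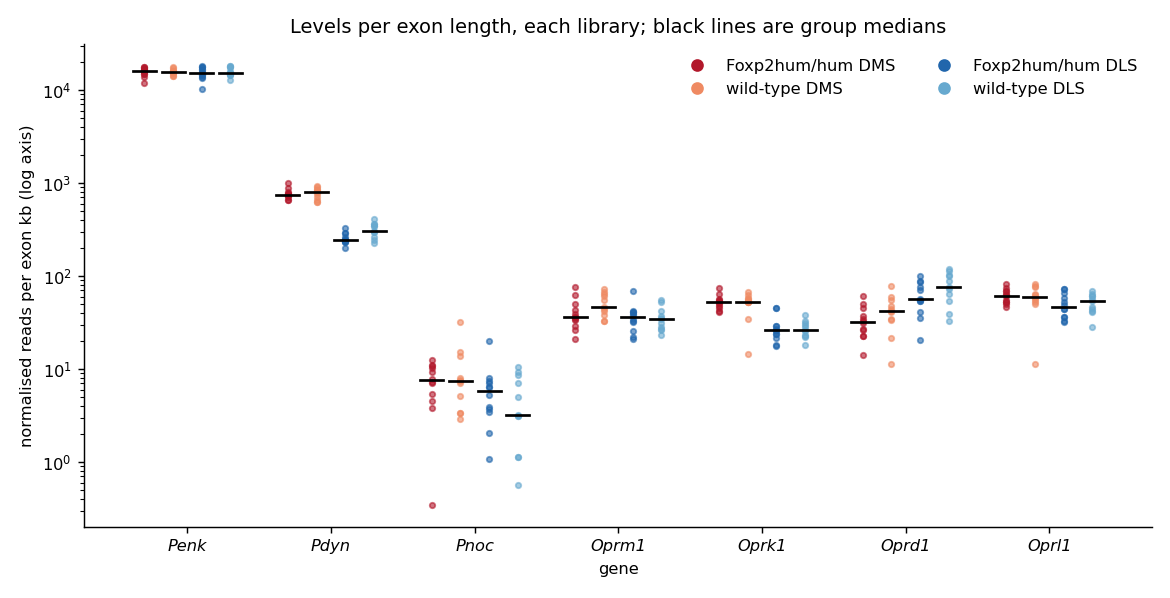
Normalised reads per exon kb (log axis) of the 7 genes, with 1 point per library, 4 groups per gene and black lines for group medians. Penk lies far above Pdyn, the receptors lie together between 11.3 and 120 normalised reads per exon kb, and Pnoc is lowest.

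Between regions, 3 of the 7 members differed, and they were the same 3 in both genotypes: Pdyn and Oprk1 were higher in DMS, and Oprd1 was lower in DMS. Dynorphin precursor and kappa receptor thus shared a direction, while the delta receptor ran the other way and its enkephalin precursor, Penk, did not pass. Averaged over genotypes the same 3 passed. Of all 19561 genes tested, 18.1% passed in Foxp2hum/hum and 17.3% in wild-type mice by limma at an adjusted p under 0.05, against 3 of 7 members. Of all genes, 9.33% were higher and 8.82% lower in DMS of Foxp2hum/hum mice, and 8.54% and 8.72% in wild-type mice. In the average 31.8% passed, 16.5% higher and 15.3% lower.

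Pdyn had the clearest regional difference. In Foxp2hum/hum mice it ran from 1893 to 2868 normalised reads in DMS (median 2159, n = 12), against 578 to 953 in DLS (median 702, n = 12). In wild-type mice it ran from 1817 to 2681 in DMS (median 2290, n = 11), against 650 to 1193 in DLS (median 890, n = 11). Every DMS library lay above every DLS library in each genotype, which held for 2.2% and 1.95% of genes tested in Foxp2hum/hum and wild-type mice, counting either direction. The difference was 1.60 ± 0.086 on the log2 scale in Foxp2hum/hum mice (SE), a fold of 3.03 with a 95% interval of 2.69 to 3.42 (limma adjusted p = 1.91e-20). In wild-type mice it was 1.31 ± 0.090, a fold of 2.49 (limma adjusted p = 1.43e-16). Among all genes tested, 333 had a larger absolute difference in Foxp2hum/hum mice and 486 in wild-type mice. Of the 5 tested markers of direct-pathway neurons other than Pdyn, 2 were lower in DMS in each genotype and 3 did not pass. Chrm4 and Drd1a were lower (by limma, -0.57 and -0.30 on the log2 scale in Foxp2hum/hum, -0.67 and -0.35 in wild-type). Those that did not pass were Tac1, Slc35d3 and Isl1, at -0.26, 0.039 and -0.0056 in Foxp2hum/hum and -0.40, -0.010 and -0.20 in wild-type.

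Penk, a marker of indirect-pathway neurons, was nearly level between regions. Its values ran from 19395 to 29087 normalised reads in DMS (median 26241) and from 16618 to 29476 in DLS (median 25045) of Foxp2hum/hum mice. In wild-type mice they ran from 23169 to 29153 in DMS (median 25644) and from 20925 to 29678 in DLS (median 24952). The groups overlapped throughout. The difference was 0.05 on the log2 scale in Foxp2hum/hum mice (95% interval -0.11 to 0.20) and -0.01 in wild-type mice (-0.17 to 0.16), and neither passed (limma adjusted p = 0.751 and 0.975). Of the 3 tested indirect-pathway markers other than Penk, 2 were lower in DMS in each genotype. These were Drd2 and Adora2a, by limma at -0.69 and -0.68 on the log2 scale in Foxp2hum/hum and -0.64 and -0.71 in wild-type, while Gpr6 did not pass, at -0.055 in Foxp2hum/hum and 0.062 in wild-type. Under quantile normalisation Penk passed in Foxp2hum/hum mice at 0.39 (limma adjusted p = 0.0168) but not in wild-type mice at 0.31 (adjusted p = 0.0890). Averaged over genotypes it also passed under that normalisation, at 0.35 (limma adjusted p = 0.00143), and under no other of the 14 alternatives.

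Pnoc, a low gene with 1 to 69 recovered reads per library, gave wide intervals. It ran from 0.657 to 23.8 normalised reads in Foxp2hum/hum DMS (median 14.4) and from 2.04 to 37.7 in Foxp2hum/hum DLS (median 10.9985). Wild-type values ran from 5.56 to 60.9 in DMS (median 14.1) and from 1.08 to 20.1 in DLS (median 6.08). The regions overlapped in both genotypes, though 10 of 11 wild-type DMS libraries lay above the wild-type DLS median. The difference was 0.29 on the log2 scale in Foxp2hum/hum mice (95% interval -0.54 to 1.13, limma adjusted p = 0.697) and 0.95 in wild-type mice (0.08 to 1.83, n = 11 and 11, unadjusted p = 0.033, limma adjusted p = 0.133), and neither passed.

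**Figure D2:**
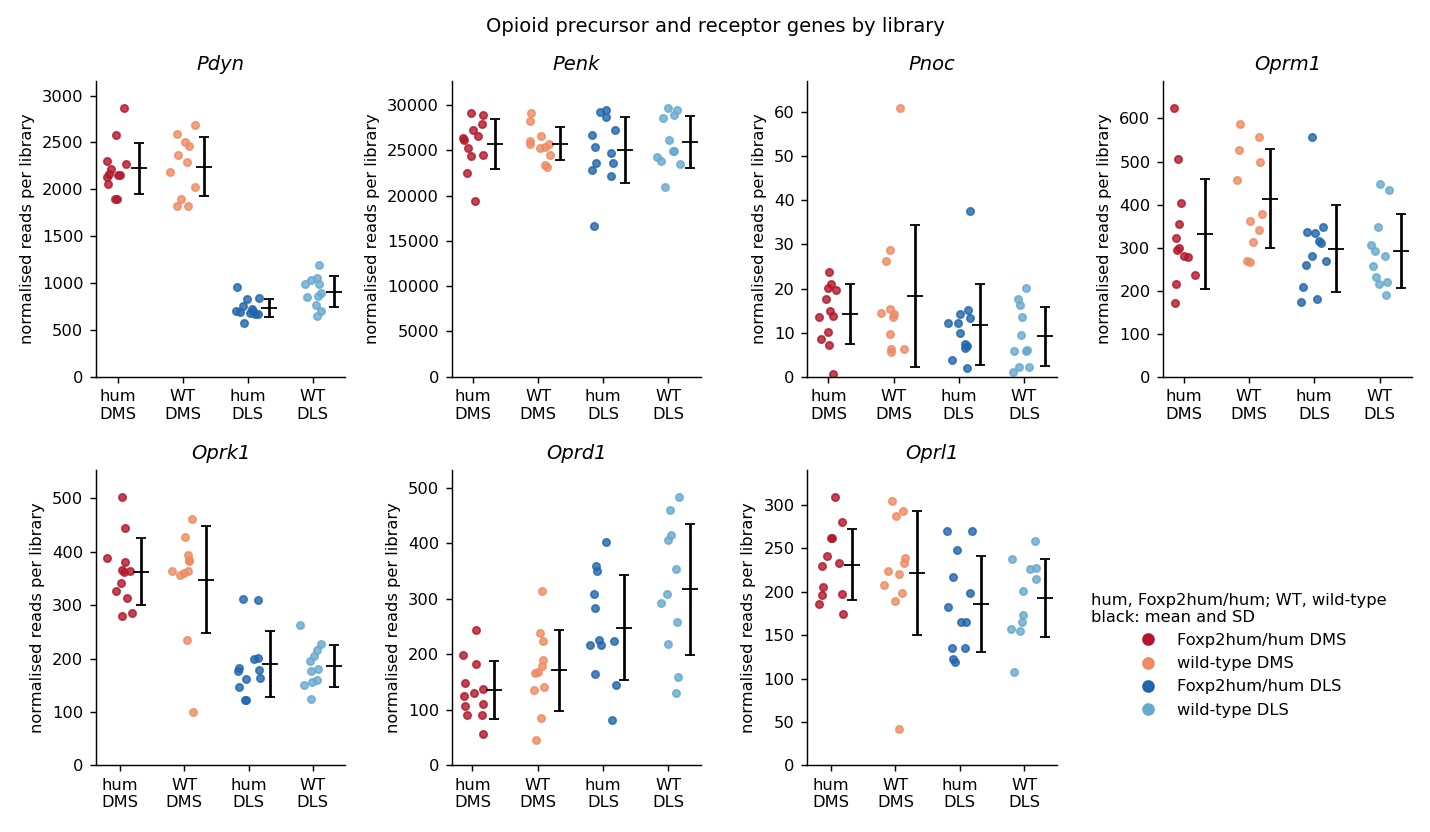
Normalised reads of each gene in each library, with Foxp2hum/hum (hum) left of wild-type (WT), DMS left of DLS, and black marks for the group mean and SD. Pdyn in DMS lies between 1817 and 2868, above all DLS libraries, Oprk1 is mostly higher in DMS, and Oprd1 is mostly lower in DMS.

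Oprk1, the kappa receptor, was higher in DMS. Its values ran from 279 to 503 normalised reads in Foxp2hum/hum DMS (median 362), against 123 to 312 in Foxp2hum/hum DLS (median 178). In wild-type mice they ran from 99.1 to 461 in DMS (median 364), against 124 to 262 in DLS (median 181). Of the Foxp2hum/hum DMS libraries, 10 of 12 lay above all DLS libraries, and of the wild-type DMS libraries 9 of 11 did, while 1 wild-type DMS library lay below all of DLS. The difference was 0.97 ± 0.17 on the log2 scale in Foxp2hum/hum mice (SE, limma adjusted p = 1.01e-05), a fold of 1.96 (95% interval 1.56 to 2.47). In wild-type mice it was 0.83 ± 0.17 (limma adjusted p = 0.00026), a fold of 1.78. The low wild-type library, library 76, also held the lowest Oprl1 value, 42.3 normalised reads, and without it the wild-type difference of Oprk1 was 1.004 (limma adjusted p = 1.66e-07).

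Oprd1, the delta receptor, was lower in DMS. It ran from 56.7 to 244 normalised reads in Foxp2hum/hum DMS (median 128), against 82.2 to 402 in Foxp2hum/hum DLS (median 225). Wild-type values ran from 45.9 to 313 in DMS (median 169), against 131 to 484 in DLS (median 308). The regions overlapped, yet 11 of 12 Foxp2hum/hum DMS libraries and 10 of 11 wild-type DMS libraries lay below the DLS median of their genotype. The difference was -0.85 ± 0.25 on the log2 scale in Foxp2hum/hum mice and -0.92 ± 0.26 in wild-type mice (SE, limma adjusted p = 0.0106 and 0.00862), which makes Oprd1 1.81-fold and 1.89-fold lower in DMS.

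Oprm1, the mu receptor, did not pass in either genotype. It ran from 170 to 625 normalised reads in Foxp2hum/hum DMS (median 297) and from 173 to 558 in Foxp2hum/hum DLS (median 295). In wild-type mice it ran from 268 to 588 in DMS (median 378) and from 189 to 448 in DLS (median 281). Foxp2hum/hum libraries of both regions covered nearly the same range, and 5 of 11 wild-type DMS libraries lay above all wild-type DLS libraries. The difference was 0.14 on the log2 scale in Foxp2hum/hum mice (95% interval -0.22 to 0.50, limma adjusted p = 0.658) and 0.50 in wild-type mice (0.13 to 0.87, limma adjusted p = 0.0535). The wild-type value lay next to the threshold. It passed in 6 of 16 alternatives, namely TMM factors (adjusted p = 0.0496), only the groups compared (0.0358), array weights (0.00408), DESeq2 (0.0422) and both fits with projection neuron markers, and in 11 of 46 fits that left out 1 library. Over the 16 alternatives its adjusted p ran from 3.5e-07 to 0.723. Averaged over genotypes, Oprm1 was at 0.32 with a limma adjusted p of 0.05003, and it passed in 9 of 15 alternatives and 14 of 46 fits that left out 1 library.

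The value of Oprm1 may also hold reads of another gene. Oprm1 spans chr10:3308332-3588035 on the minus strand of mm9, and 8981 exon bases of Ipcef1, on the opposite strand, lie inside that span. The deposited values behave as if reads anywhere in a gene's span were counted on either strand: of 294 well-expressed intronic genes (mean of at least 500), 205 of them antisense to their host, 0 exceeded the host in any library. Reads of Ipcef1 can therefore stand in the Oprm1 value. The whole value of Ipcef1 averaged 459 normalised reads, 138% of that of Oprm1. The value of Ipcef1 less that of Gm15536, another measured gene, was taken as an estimate of what Ipcef1 could add. Whether that difference is an upper limit was not tested. It amounted to a median of 35.1% of the Oprm1 value in Foxp2hum/hum DMS and 37.4% in wild-type DMS. In DLS it was 49.1% in Foxp2hum/hum and 42.6% in wild-type mice. With this amount subtracted, the regional difference of Oprm1 was 0.30 in Foxp2hum/hum and 0.73 in wild-type mice (limma adjusted p = 0.562 and 0.110). The spans of Oprm1 and Ipcef1 share 152414 bases. If whole spans were counted, the subtraction also removed reads of Oprm1 itself, so it does not give an Oprm1 value cleared of Ipcef1 alone. The other receptor genes had no overlapping gene in the annotation: Oprk1 lies at chr1:5578574-5596212 on the plus strand, Oprd1 at chr4:131666641-131700401 on the minus strand and Oprl1 at chr2:181449721-181455690 on the plus strand. Of the precursors, Pdyn (chr2:129512301-129525580) and Pnoc (chr14:66019510-66044046) also had none, and Penk (chr4:4060678-4065966) overlapped A830012C17Rik, whose whole value was 6.27% of that of Penk. All 3 precursors lie on the minus strand.

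Oprl1, the nociceptin receptor, did not pass in either genotype. It ran from 174 to 310 normalised reads in Foxp2hum/hum DMS (median 231) and from 119 to 270 in Foxp2hum/hum DLS (median 174). Wild-type values ran from 42.3 to 305 in DMS (median 224) and from 107 to 258 in DLS (median 201). All 12 Foxp2hum/hum DMS libraries lay above the DLS median, but the ranges overlapped. The difference was 0.35 on the log2 scale in Foxp2hum/hum mice (95% interval -0.03 to 0.74) and 0.11 in wild-type mice (-0.29 to 0.51; limma adjusted p = 0.222 and 0.774). Without library 76 the wild-type difference was 0.33 (limma adjusted p = 0.119). Averaged over genotypes it was 0.23 (limma adjusted p = 0.209), and without library 76 it was 0.34 and passed (limma adjusted p = 0.00585).

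**Figure D3:**
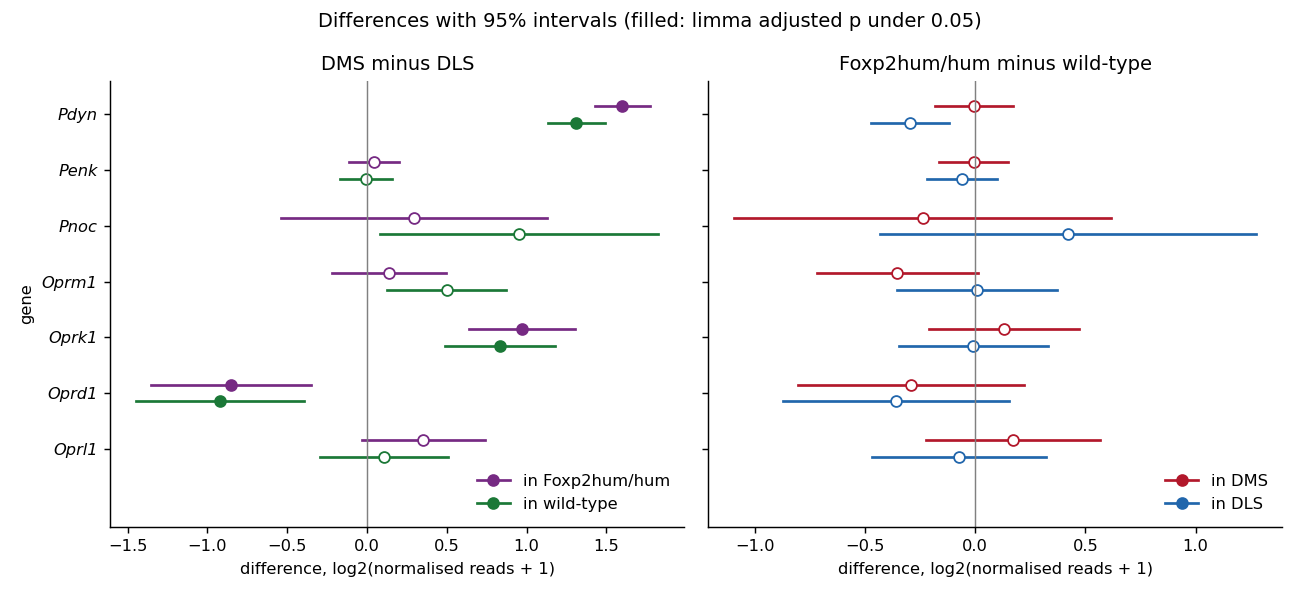
Differences on the log2 scale with 95% intervals, DMS minus DLS at left and Foxp2hum/hum minus wild-type at right. Filled points passed at a limma adjusted p under 0.05, which held for Pdyn, Oprk1 and Oprd1 between regions and for no gene between genotypes.

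With cell-type markers as covariates, Pdyn kept its regional call in every fit, Oprk1 in 2 of 3 and Oprd1 in its own direction in 0 of 3. The marker levels themselves differed between regions, so these fits do not cleanly separate region from marker level. The summed level of the 9 shared projection neuron markers ran from 99201 to 132650 normalised reads in Foxp2hum/hum DMS and from 97838 to 159080 in wild-type DMS, against 151550 to 195560 in Foxp2hum/hum DLS and 155330 to 221250 in wild-type DLS, and no marker was at 0. With their mean log2 level as a covariate, Oprd1 turned from lower to higher in DMS, at 0.43 in Foxp2hum/hum and 0.45 in wild-type mice (limma adjusted p = 0.0291 and 0.0321). Oprm1 passed as higher in DMS in that fit, at 0.82 and 1.22 (limma adjusted p = 0.000115 and 3.5e-07). With this covariate, 9954 of 19561 genes were called between regions in Foxp2hum/hum mice and 9552 in wild-type mice. Without it the numbers were 3550 and 3377. A call in that fit by itself therefore sets a member little apart from other genes. Pdyn kept its call at 1.87 and 1.60, and Oprk1 at 1.19 and 1.06.

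The choroid plexus markers, 6 in all, summed to 221 to 6730 normalised reads in Foxp2hum/hum DMS and 184 to 10489 in wild-type DMS, against 90.9 to 246 in Foxp2hum/hum DLS and 111 to 320 in wild-type DLS. The 4 ependyma markers summed to 534 to 1509 in Foxp2hum/hum DMS and 365 to 1644 in wild-type DMS, against 237 to 394 in Foxp2hum/hum DLS and 205 to 301 in wild-type DLS. The ependyma gene Ccdc153 had a median of 0 in wild-type DLS. The mean log2 level of the choroid plexus and ependyma markers ran from 4.33 to 7.52 in DMS libraries and from 2.19 to 3.69 in DLS libraries. The regions did not overlap, so a fit with this covariate can hardly tell region from marker level. A call lost there does not show that a regional difference was absent. With this mean as a covariate, only 1 of the 7 members passed, Pdyn, at 1.63 in Foxp2hum/hum and 1.34 in wild-type mice (limma adjusted p = 9.53e-10 and 2.48e-08), while the genes called in all fell to 580 and 672. Oprk1 stood at 0.74 and 0.62 in that fit (adjusted p = 0.267 and 0.331) and Oprd1 at -1.12 and -1.16 (adjusted p = 0.264 and 0.178). With both marker scores together, Oprd1 was at 0.13 and 0.17 (adjusted p = 0.774 and 0.667) and Oprk1 passed at 0.95 and 0.84 (adjusted p = 0.0337 and 0.0474).

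**Figure D4:**
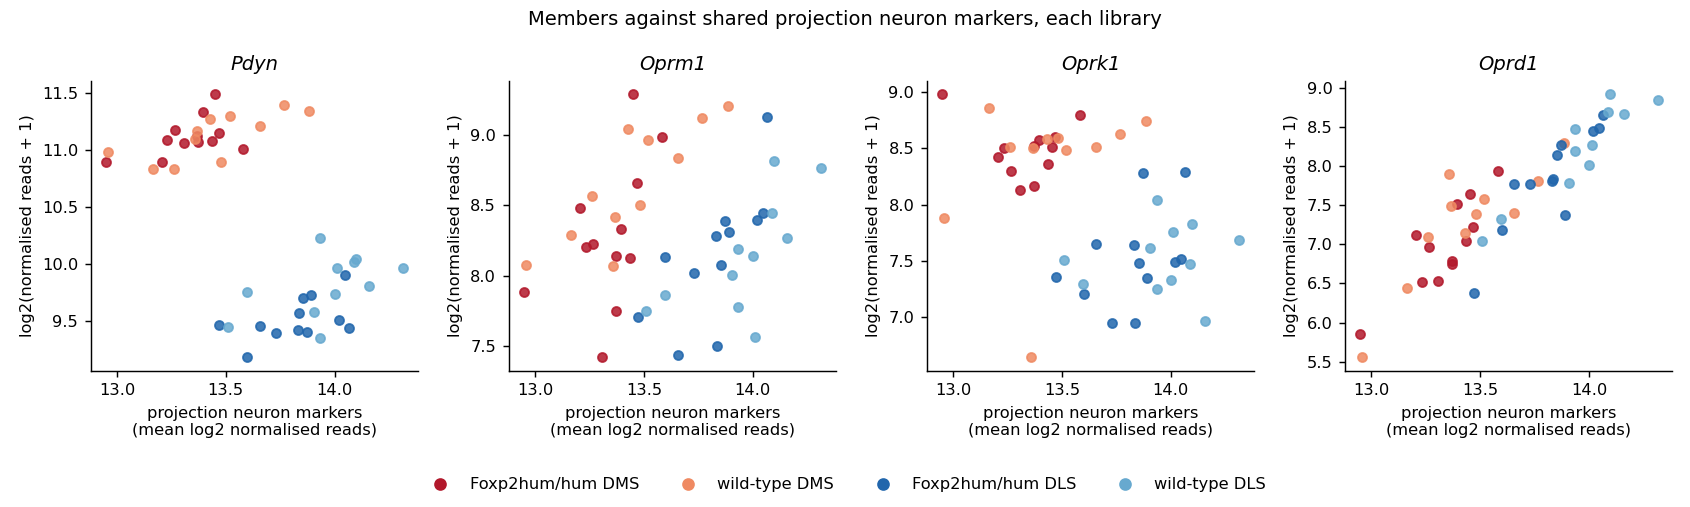
Level of 4 members, as log2(normalised reads + 1), against the mean log2 level of the shared projection neuron markers in each library. Oprd1 rises with the markers inside each of the 4 groups. Pdyn in DMS lies above all DLS libraries, and Oprk1 above most, at lower marker levels.

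Between genotypes, none of the 7 members passed in either region. Among all genes, 0% passed by limma in DMS and 0% in DLS; at an unadjusted p under 0.05 there were 700 (3.58%) and 843 (4.31%) of 19561. The average over regions and the interaction also gave 0%, with 8.58% and 1.64% at an unadjusted p under 0.05. On whole reads edgeR called 0 genes in either region, and DESeq2 called 0 in DMS and 3 in DLS, none of them a member.

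The member nearest to a genotype difference was Pdyn in DLS. It averaged 734 ± 99.2 normalised reads in Foxp2hum/hum DLS and 907 ± 165 in wild-type DLS (SD, n = 12 and 11), and 11 of 12 Foxp2hum/hum libraries lay below the wild-type median. The ranges overlapped, at 578 to 953 in Foxp2hum/hum and 650 to 1193 in wild-type DLS. The difference was -0.29 on the log2 scale (95% interval -0.47 to -0.12, n = 12 and 11, unadjusted limma p = 0.00165), which ranked 20 by p among the genes tested and did not pass adjustment (limma adjusted p = 0.843). In DMS Pdyn differed by -0.01 (95% interval -0.18 to 0.17). The interaction, by which the regional difference of Pdyn was larger in Foxp2hum/hum mice, was 0.29 (95% interval 0.04 to 0.54) and did not pass (n = 46 libraries, unadjusted limma p = 0.0257, adjusted p = 0.9999). Mitochondrially encoded genes took 24.8% ± 2.87 of reads in Foxp2hum/hum DLS and 22.7% ± 3.61 in wild-type DLS, and with that share as a covariate the Pdyn difference in DLS was -0.24 (n = 12 and 11, unadjusted limma p = 0.00504). With the shared projection neuron markers as the covariate it was -0.22 (n = 12 and 11, unadjusted limma p = 0.00499).

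For the other members the genotype intervals were as follows. Penk differed by -0.01 in DMS (95% interval -0.17 to 0.15) and -0.06 in DLS (-0.22 to 0.10), the narrowest intervals of the 7. Oprm1 differed by -0.35 in DMS (-0.72 to 0.01, n = 12 and 11, unadjusted limma p = 0.0571, adjusted p = 0.955) and by 0.01 in DLS (-0.36 to 0.37). Its mean was 332 ± 127 normalised reads in Foxp2hum/hum DMS and 414 ± 116 in wild-type DMS (SD, n = 12 and 11), and 9 of 12 Foxp2hum/hum libraries lay below the wild-type median.

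Oprd1 was at -0.29 in DMS (95% interval -0.80 to 0.22) and -0.36 in DLS (-0.87 to 0.15), Oprk1 at 0.13 (-0.21 to 0.47) and -0.01 (-0.35 to 0.33), and Oprl1 at 0.17 (-0.22 to 0.56) and -0.07 (-0.47 to 0.32). Without wild-type library 76 the DMS values turned in direction, to -0.040 for Oprk1 and -0.052 for Oprl1. Pnoc was at -0.24 in DMS (-1.09 to 0.62) and 0.42 in DLS (-0.43 to 1.28). For Oprd1 the interval in DLS reaches -0.87, about the size of its regional difference. A p that missed the threshold therefore does not show that genotypes were alike.

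Inside groups, with each group's mean removed, the members did not vary as 1 block. Of the 21 pairs over the 46 libraries, 11 had a positive correlation, and 3 passed on both Pearson's r and Spearman's rho after adjustment over the pairs. Oprm1 and Oprd1 varied together most closely (r = 0.638, rho = 0.666, permutation p = 1e-05, the smallest the 100000 permutations can give, adjusted p = 0.00021 for both). Pdyn varied with Oprd1 (r = 0.474, rho = 0.511, permutation p = 0.00137 and 0.00048, adjusted p = 0.0144 and 0.00504) and with Oprm1 (r = 0.436, rho = 0.444, permutation p = 0.00266 and 0.00265, adjusted p = 0.0172 and 0.0186). Without the 2 libraries farthest from the median of the first-named gene, these 3 stood at 0.609, 0.559 and 0.441. The same choice was made below, on the first-named gene of a pair or on the member. A library that is extreme only in the other measure therefore stayed in. Members measured in the same library share its depth and tissue makeup in these values. Inside a single group, with 11 or 12 libraries, no pair passed on both measures.

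No precursor passed on both coefficients with a receptor that its peptides prefer. Pdyn and Oprk1 had r = -0.071 and rho = -0.071 (permutation p = 0.661 and 0.645, adjusted p = 0.727 and 0.678), and r = 0.028 without the 2 farthest libraries. Penk and Oprd1 had r = -0.209 and rho = -0.244 (permutation p = 0.165 and 0.115, adjusted p = 0.315 and 0.201), and r = -0.125 without the 2 farthest libraries. Penk and Oprm1 had r = -0.407 and rho = -0.296 (permutation p = 0.00891 and 0.0522, adjusted p = 0.0374 and 0.110), and r = -0.284 without the 2 farthest libraries, so this pair passed on Pearson's r alone. Its sign differed between groups, with r = -0.428 in Foxp2hum/hum DMS, 0.761 in wild-type DMS, -0.834 in Foxp2hum/hum DLS and -0.417 in wild-type DLS. Pnoc and Oprl1 had r = 0.060 and rho = 0.0062 (permutation p = 0.692 and 0.968, adjusted p = 0.727 and 0.968), and r = 0.092 without the 2 farthest libraries. Oprk1 and Oprl1 had r = 0.557 with rho = 0.311 (permutation p = 0.0199 and 0.045, adjusted p = 0.0697 and 0.105), and r fell to 0.329 without the 2 farthest libraries, of which library 76 is 1, so that relation rests on them.

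Against 4 measures of the libraries, 28 relations in all, 6 passed on both coefficients. The share of all genes that follow these measures was not tested, so these relations do not set the members apart from other genes. Oprd1 followed the shared projection neuron markers most closely (r = 0.873, rho = 0.800, permutation p = 1e-05 for both, adjusted p = 0.00014), and r was 0.842 without the 2 farthest libraries. Oprm1 followed them too (r = 0.659, rho = 0.717, permutation p = 1e-05 for both, adjusted p = 0.00014), with r = 0.663 without the 2 farthest. Pdyn did so less closely (r = 0.563, rho = 0.599, permutation p = 0.00022 and 5e-05, adjusted p = 0.00154 and 0.000467), with r = 0.633 without the 2 farthest. Pnoc ran against them (r = -0.402, rho = -0.408, permutation p = 0.00848 and 0.00765, adjusted p = 0.0396 and 0.0357), with r = -0.385 without the 2 farthest.

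The mitochondrial share of reads ran against Oprd1 (r = -0.550, rho = -0.529, permutation p = 0.00015 and 0.00032, adjusted p = 0.0014 and 0.00224) and against Pdyn (r = -0.474, rho = -0.420, permutation p = 0.00123 and 0.00544, adjusted p = 0.00689 and 0.0305). Without the 2 farthest libraries these stood at -0.571 and -0.462. Given the mitochondrial share, 4 pairs of members passed on both coefficients. The part of the marker level or of RNA quality in the relations between members was not tested beyond these values.

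The genes whose levels were most alike to each member were found over the same 46 libraries, with group means removed, among 14806 genes (14805 for Oprm1). Members, clone symbols and overlapping genes were left out of the search, and the relations are a description. Oprd1 had the closest, Scd2 (r = 0.938), Spock2 (0.938) and Klhl34 (0.936). For Oprm1 they were Zfr (0.833), Tpr (0.819) and Gria3 (0.818), and for Penk they were Vdac1 (0.791), Atp6v0d1 (0.778) and Ckb (0.767). Pdyn was most like Supt5h (0.692), Ewsr1 (0.682) and Xpo5 (0.678). For Oprl1 they were Stambpl1 (0.756), Syap1 and Slc38a4, and for Oprk1 Zfp442 (0.697), Stk39 and Smyd1. The relation with Stambpl1 fell to r = 0.458 and that with Zfp442 to r = 0.352 without the 2 farthest libraries. Pnoc had the loosest, Klhl17 (0.561), Cyp3a13 (0.547) and D11Wsu47e (0.515).

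Among the other genes of the opioid pathway, the clearest regional differences lay in enzymes that break the peptides down and in a regulator of G-protein signalling. The counts of this list and of those that follow stand beside these shares of all genes tested. In Foxp2hum/hum mice 9.33% were higher and 8.82% lower in DMS, and in wild-type mice 8.54% and 8.72%. The lists are short, so their counts are a description. Of 11 breakdown enzymes, 2 were higher and 3 lower in DMS in each genotype, with a median log2 difference of -0.11 in Foxp2hum/hum and -0.10 in wild-type mice, beside 0.02 and 0.01 over all genes tested. Ace, the angiotensin-converting enzyme, which can also cut enkephalin-like peptides, was lower in DMS at -2.94 and -2.82 on the log2 scale in Foxp2hum/hum and wild-type mice (limma adjusted p = 7.5e-17 and 1.33e-15). Mme, which encodes neprilysin, a main enkephalin-degrading peptidase, was lower at -1.63 and -1.54 (limma adjusted p = 9.998e-16 and 3.61e-14). Ece1, an endothelin-converting enzyme, was lower at -0.70 and -0.69, while the related Ece2 was higher at 0.31 and 0.25. Ide, the insulin-degrading enzyme, was higher at 0.29 and 0.33.

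Of 7 genes for peptide processing, 0 were higher and 2 lower in each genotype (median -0.18 and -0.16). Scg5, the chaperone of the precursor protease PC2, was lower at -0.47 in Foxp2hum/hum and -0.48 in wild-type mice. Pcsk1, the precursor protease PC1, passed in Foxp2hum/hum mice at -0.93, and its value in wild-type mice was -0.69. Ctsl, the protease cathepsin L, passed in wild-type mice at -0.33, and its value in Foxp2hum/hum mice was -0.26. The difference between genotypes in these values did not pass for any gene.

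Of 12 tested genes that signal below the receptors, 2 were higher and 3 lower in Foxp2hum/hum mice, and 3 were higher and 2 lower in wild-type mice (median -0.18 and -0.22). The inhibitory G-protein subunit genes Gnai1 (0.87 and 0.83) and Gnai2 (0.37 and 0.41) were higher in DMS. The G-protein subunit gene Gnao1 was lower, at -0.44 in each genotype, as was the adenylyl cyclase gene Adcy1 (-0.94 and -0.86). The potassium channel gene Kcnj9 passed in Foxp2hum/hum mice at -0.46, and its value in wild-type mice was -0.27.

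Of 12 genes that regulate the receptors or their signal, 0 were higher in either genotype, while 4 were lower in Foxp2hum/hum mice and 3 in wild-type mice (median 0.02 and 0.05). Rgs4, which speeds the shut-off of inhibitory G proteins, was lower at -1.60 and -1.65 (limma adjusted p = 5.5e-21 and 9.83e-21). Rgs9, a striatal member of the same family that also stands in the projection neuron list, was lower at -0.35 and -0.36, and Rgs7 at -0.25 and -0.38. The receptor kinase gene Grk5 passed in Foxp2hum/hum mice at -0.33, and its value in wild-type mice was -0.26.

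Of 6 transcription regulators of opioid genes, 2 were higher and 1 lower in each genotype (median 0.13 and 0.18). The immediate-early genes Fosb (1.23 and 1.41) and Fos (1.46 and 1.402) were higher in DMS. Kcnip3, which encodes DREAM, a repressor of Pdyn transcription, was lower at -0.29 and -0.32. Of 4 other opioid-named genes, 0 were higher in either genotype, while 1 was lower in Foxp2hum/hum mice and 2 in wild-type mice (median -0.07 and -0.28). Among them Ogfrl1, a gene named for its likeness to the opioid growth factor receptor gene, was lower at -0.36 in each genotype. Between genotypes, 0 of these pathway genes passed by limma in either region.

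**Figure D5:**
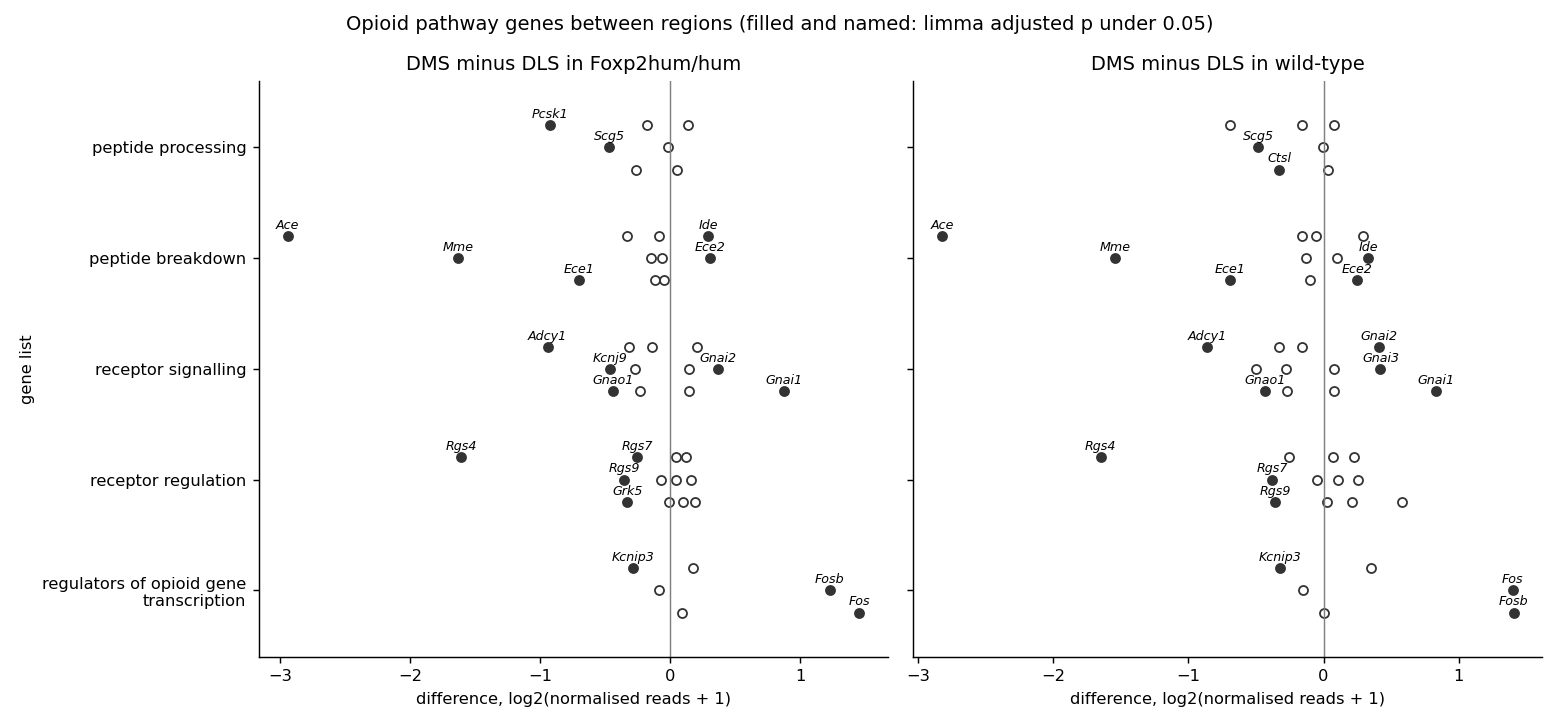
Differences of DMS minus DLS on the log2 scale for the pathway genes, by list and genotype, with the genes that passed at a limma adjusted p under 0.05 set apart from those that did not. Ace, Mme and Rgs4 lie farthest below 0, at -2.94, -1.63 and -1.60 in Foxp2hum/hum mice.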

How the data were processed

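Messenger RNA was sequenced from laser-captured DMS and DLS. The labels' protocols give a column kit, low-input indexed libraries and 3 flow cells. The submitters' processing notes name mm9, TopHat 1.4.1, bedtools and DESeq. No source used here states how reads were assigned to genes. The authors' deposited signal is read counts divided by a size factor per library, per the file headers and values. Dividing each value by the smallest step of its library gave a whole number in 100% of cases (tolerance 0.01), which recovered the read counts. Totals of 16.8 to 41 M reads, summed over genes and also the base of the mitochondrial share, set the precision.

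The filter kept 19561 of 25259 genes, those whose mean was 10 or more. Their values, as log2(value + 1), went into limma 3.58.1 (R 4.3.3, eBayes with trend), fitting 4 group means over 46 libraries. Two-sided p-values were adjusted by Benjamini-Hochberg over all of these genes, at a threshold of 0.05. Fold changes on this scale understate those of low genes. Intervals are 95%. Alternatives were other pseudocounts, filters and normalisations, array weights, covariates, the recovered reads in DESeq2 1.42.0 and edgeR 4.0.16, and leaving out each library. Covariates were the mean log2 level of marker lists or the mitochondrial share. The procedure was also tested on simulated data.

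Correlations used log2(value + 1) less group means, with 100000 permutations within groups (SciPy 1.17.1), adjusted within each family. Of the genes, 25023 matched GENCODE M1, of the same build, which gave positions, exon lengths and sequences. The text names the 7 members, up to 4 genes with the smallest p per pathway list and comparison among those that passed, and the 3 genes most correlated with each member. The members and lists were chosen with earlier results of these data known. Values of pathway genes in the genotype where they did not pass, and a few marker genes, were added after seeing the data. Some results on pathway genes and precursor sequences are not reported here.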

Additional observations from a re-analysis of the deposited data

How the results depend on the processing

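Of the members' differences on the log2 scale, 2808 values under an alternative kept direction and call, 46 gained a call, 6 lost one and 108 changed sign. Of these 108, 6 were called in either fit, and the cause was not tested. They were Oprd1 between regions, at 0.43 in Foxp2hum/hum, 0.45 in wild-type and 0.44 averaged with the projection neuron covariate, and 0.13, 0.17 and 0.15 with both marker covariates. The other 102 were called in neither fit, 55 of them on leaving out 1 library.

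Between regions, Pnoc turned to -0.65 (Foxp2hum/hum), -0.054 (wild-type) and -0.35 (averaged) with the projection neuron covariate, and to -0.29 (Foxp2hum/hum) and -0.0036 (averaged) with both. Oprm1 in Foxp2hum/hum turned to -0.058 with the choroid plexus and ependyma covariate, and Oprl1 to -0.12 in wild-type and -0.0045 averaged (-0.036 in wild-type with both). Penk turned in wild-type to 0.00013 (TMM), 0.31 (quantile), 0.14 (choroid plexus and ependyma) and 0.11 (both), and averaged to -0.017 (array weights), -0.013 (projection neuron) and -0.0018 (mitochondrial share).

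Between genotypes in DMS, Pdyn turned to 0.0034 (quantile), 0.051 (projection neuron), 0.053 (mitochondrial share), 0.054 (both) and 0.015 (without libraries 70 and 72). Penk turned there to 0.12 (quantile), 0.021 (choroid plexus and ependyma), 0.013 (mitochondrial share), 0.014 (both), 0.011 (without libraries 70 and 72) and 2.58e-05 (edgeR), and Oprk1 to -0.014 (array weights). In DLS, Penk turned to 0.033 (quantile), Oprd1 to 0.0020 (projection neuron), and Oprm1 to -0.0027 (array weights) and -0.0097 (choroid plexus and ependyma). Oprk1 turned there to 0.053 (projection neuron), 0.032 (both), 0.024 (without libraries 70 and 72), 0.023 (edgeR) and 0.024 (DESeq2). Averaged over regions, Penk turned to 0.075 (quantile), Oprk1 to -0.024 (array weights), and Oprl1 to -0.031 (array weights) and -0.0029 (mitochondrial share). Pnoc turned to -0.056 (array weights), -0.14 (projection neuron), -0.022 (mitochondrial share) and -0.095 (both). The interaction of Oprd1 turned to -0.018 (projection neuron) and -0.044 (both).

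Leaving out 1 library at a time also crossed 0 for these uncalled values. Between regions Penk ran from -0.0066 to 0.082 in Foxp2hum/hum, -0.036 to 0.015 in wild-type and -0.0062 to 0.038 averaged. Between genotypes in DMS, Pdyn ran from -0.041 to 0.020, Penk from -0.024 to 0.029, Pnoc from -0.36 to 0.032, Oprk1 from -0.040 to 0.18 and Oprl1 from -0.052 to 0.23. In DLS, Oprm1 ran from -0.081 to 0.074 and Oprk1 from -0.078 to 0.044. Averaged over regions, Pnoc ran from -0.0042 to 0.23, Oprk1 from -0.024 to 0.088 and Oprl1 from -0.062 to 0.079. The interaction ran from -0.00090 to 0.087 for Penk, -0.033 to 0.21 for Oprk1 and -0.10 to 0.18 for Oprd1.

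The genes called between regions numbered 3550 in Foxp2hum/hum, 3377 in wild-type and 6220 averaged. They numbered 580, 672 and 822 with the choroid plexus and ependyma covariate, where 1 member was called in each, and 9954, 9552 and 10981 with the projection neuron covariate. The choroid plexus and ependyma level did not overlap between regions, so that fit can hardly separate region from marker level. With array weights 5 members were called in the average. Between genotypes in DLS, array weights called 1 gene and DESeq2 3, and in the average the projection neuron covariate called 1. Inside each of the 4 groups 0 pairs of members passed on both coefficients, against 3 pooled. Leaving out 1 library at a time gave 3275 to 3656, 3079 to 3558 and 5926 to 6475 genes between regions, with 3 to 3, 3 to 4 and 3 to 5 members (5 without library 76). It gave 0 to 0 genes between genotypes in DMS, 0 to 1 in DLS (1 without library 77), and 0 to 0 in the average and the interaction, with 0 to 0 members. Pnoc passed in the regional average without library 27, at 0.76 (limma adjusted p = 0.0308). A fit of only the groups compared was not run for averages and the interaction, and a minimum mean of 50 left no value for Pnoc. No paired analysis was possible because the columns carry library numbers that no 2 groups share. Depth limits Pnoc most.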
